A study of Mus musculus with 28 samples.

Results

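The 10 genes described here encode the bile acid receptor FXR, its target SHP, and the receptors that act beside them in liver: Nr1h4 (FXR), Nr0b2 (SHP), Nr5a2 (LRH-1), Fgfr4, Hnf4a, Rxra, Ppara, Nr1h3 (LXR alpha), Nr1i2 (PXR), and Nr1i3 (CAR). They were named as a family of receptors, with earlier results of these data known, and all 10 matched a row among the 21935 genes of the counts table. RNA-seq of polyA RNA was performed on the livers of 28 male ob/ob mice of the strain B6.V-Lepob/JRj, with 1 library per mouse. All mice lacked functional leptin, were obtained at 5 weeks of age, and received the AMLN diet (high in fat, fructose, and cholesterol) over 14 weeks to produce nonalcoholic steatohepatitis (NASH). They were then dosed once daily for 2 weeks, with the diet continued, with vehicle (n = 10), obeticholic acid (OCA) 30 mg/kg (n = 9), or INT-787 30 mg/kg (n = 9). OCA is a modified bile acid that activates FXR, and INT-787 is the FXR agonist set against it in this study. All groups carried the leptin deficiency and the diet, and no lean or chow-fed group is analysed here, so each comparison is between treatments within 1 disease model.

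Nuclear receptors are transcription factors whose activity is set by small lipophilic ligands. In hepatocytes, bile acids bind FXR, which pairs with RXR alpha and switches on SHP, a receptor without a DNA-binding domain that represses others, LRH-1 and HNF4 alpha among them, at the bile acid synthesis genes Cyp7a1 and Cyp8b1. Intestinal FXR adds a second brake through the hormone FGF15, which signals to the liver through FGFR4 and its co-receptor beta-Klotho, while PPAR alpha, LXR alpha, PXR, and CAR, all partners of RXR alpha, sense fatty acids, oxysterols, and foreign or toxic compounds.

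Levels are given as CPM, a gene's counts relative to the TMM-scaled total of its library, and, where genes are compared with each other, per kilobase of exon as well (RPKM). Fold changes, standard errors, 95% intervals, and p values come from edgeR's quasi-likelihood test on the counts, with p adjusted by the Benjamini-Hochberg method over all 12580 genes tested. A gene was called higher or lower at an adjusted p of at most 0.05. All 10 receptors passed the filter on low counts.

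Per kilobase, the receptors spanned about 1 order of magnitude in vehicle livers. Hnf4a (83.1 ± 9.11 RPKM, mean ± SD, n = 10) and Rxra (74.8 ± 14.1 RPKM) stood highest, followed by Nr1h4 (50.1 ± 8.27 RPKM) and Nr1h3 (34.8 ± 7.50 RPKM). Ppara (27.2 ± 10.6 RPKM), Nr1i2 (21.8 ± 6.61 RPKM), and Nr0b2 (18.7 ± 7.59 RPKM) made up the middle. Nr5a2 (9.10 ± 1.30 RPKM), Nr1i3 (8.65 ± 2.97 RPKM), and Fgfr4 (8.52 ± 1.35 RPKM) had the lowest levels, that of Nr1i3 being uncertain for a reason given below. The ranges over mice of every pair of neighbours in this order overlapped, although within single livers Nr1h4 stood above Nr1h3 in 10 of 10 vehicle mice and Nr0b2 above Nr5a2 in 9 of 10. Hnf4a lay at the percentile 95.9 of the mean RPKM of all tested genes and Fgfr4 at percentile 72.8. With treatment the mean of Nr0b2 moved to 42.1 RPKM with OCA and 57.4 RPKM with INT-787, past those of Nr1i2 (24.1 and 32.3 RPKM), Ppara (28.7 and 32.2 RPKM), and Nr1h3 (36.8 and 36.3 RPKM) in both groups and past that of Nr1h4 with INT-787 (43.4 RPKM).

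**Figure D1:**
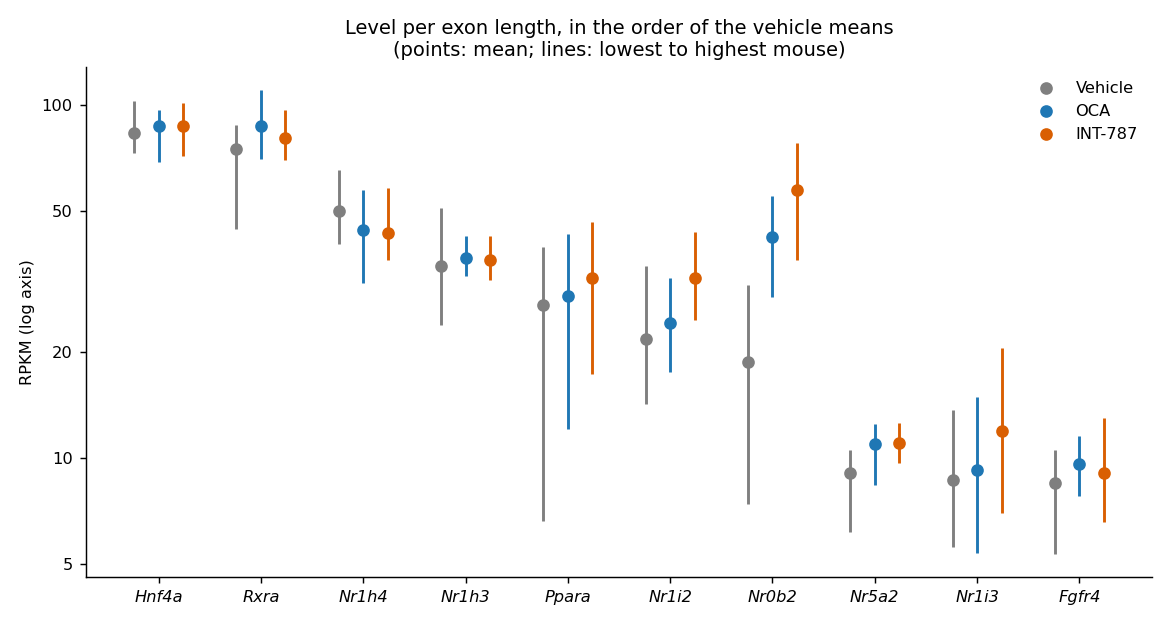
Mean level per kilobase of exon (RPKM, log axis) of the 10 receptors in vehicle (n = 10), OCA (n = 9), and INT-787 (n = 9) livers, ordered by the vehicle mean, with lines from the lowest to the highest mouse. Nr0b2 moved from 18.7 RPKM in vehicle to 57.4 RPKM with INT-787, while the ranges of Hnf4a, Rxra, and Nr1h3 overlapped among the groups.

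Library totals ranged from 9313260 to 22421506 counts, apart from vehicle replicate 6 with 1009593, in which Nr0b2 had 23 counts and Hnf4a 435. A length score was computed for each library, the median log2 CPM deviation of genes with at least 5000 bp of exon less that of genes with less than 1500 bp. It ranged from -0.82 (replicate 10) to 0.59 (replicate 1) in vehicle livers, from -0.33 to 0.33 with OCA, and from -0.33 to 0.27 with INT-787, with group means of -0.03, 0.01, and 0.03. Summed hepatocyte markers (5 genes) averaged 93823 CPM in vehicle, 136650 CPM with OCA, and 122770 CPM with INT-787, and 3 of the 5 (Alb, Ass1, and Cps1) were called higher with each drug. Alb made up most of these sums (74111, 114240, and 100980 CPM), while Ttr (9061, 9416, and 7213 CPM) and Apoa1 were not called. Summed stellate cell and fibroblast markers (8 genes) were 1392 to 2581 CPM in vehicle, 1291 to 3461 CPM with OCA, and 501 to 1269 CPM with INT-787, and 5 of the 8 were called lower in INT-787 than in vehicle livers. Summed macrophage markers (7 genes) were 431 to 629 CPM, 341 to 769 CPM, and 255 to 474 CPM in the same order, with 3 of 7 called lower with INT-787. Between the drugs, 3 of 8 stellate markers (Col1a1, Col1a2, and Col3a1, median log2 difference of the 8, -0.49) and 3 of 7 macrophage markers (Cd68, Lgals3, and Trem2, median of the 7, -0.35) were called lower with INT-787, and 1 of 5 hepatocyte markers (Ass1, 1433 CPM with OCA and 1900 CPM with INT-787) was called higher. Of the macrophage markers not called, Clec4f (55.5 CPM with OCA and 61.3 CPM with INT-787) and Vsig4 (27.9 and 28.6 CPM) had higher means with INT-787. Adgre1 and Cd5l had lower means. Of 5 cholangiocyte markers, Spp1, which other cells also express, was called lower with INT-787 than with vehicle and than with OCA (593 CPM in vehicle, 773 CPM with OCA, and 355 CPM with INT-787), and Krt7, Krt19, Epcam, and Sox9 were not called in any comparison. Endothelial markers (6 genes) averaged 220, 179, and 181 CPM, with 2 of 6 (Cdh5 and Pecam1) called lower with INT-787 than with vehicle and 4 of 6 with upper-quartile scaling. Neutrophil markers (3 genes) reached at most 5.91 CPM and T and B cell markers (6 genes) at most 12.5 CPM in any liver, and red cell markers (4 genes) averaged 278, 234, and 201 CPM. The part of these shifts in the receptor levels below was not tested, and in whole liver, fewer cells of a type and less RNA per cell cannot be told apart.

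Against vehicle, INT-787 raised 3 of the 10 receptors (Nr0b2, Nr1i2, and Nr5a2) and lowered none, where 19.6% of all tested genes were called (10.2% higher and 9.48% lower). The count was 2 with upper-quartile scaling and at an adjusted p of at most 0.01, and 4 with the length score as a covariate. OCA raised 2 of the 10 (Nr0b2 and Nr5a2) and lowered none, where 6.60% of all genes were called (4.15% higher and 2.45% lower); Nr5a2 was lost, leaving 1, in 8 other settings and in 21 of 28 runs that each left out 1 mouse. Between the drugs none of the 10 was called, where 5.38% of all genes were (2.19% higher and 3.19% lower with INT-787), although Nr0b2 and Nr1i2 had unadjusted p values of 0.0261 and 0.0106. With sets of neighboring sample numbers as a block, 1 of the 10 (Nr1i2) was called between the drugs. At an unadjusted p below 0.05, 4 of the 10 receptors differed between INT-787 and vehicle (32.3% of all genes), 2 between OCA and vehicle (18.5%), and 2 between the drugs (18.9%), which are shares near those of all genes. The median log2 fold change of the 10 was 0.18 for INT-787 and 0.12 for OCA against vehicle, beside -0.001 and 0.02 over all genes, and 0.01 between the drugs. Both drugs were compared with the same 10 vehicle mice, and the members' shares were not tested against the background shares.

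**Figure D2:**
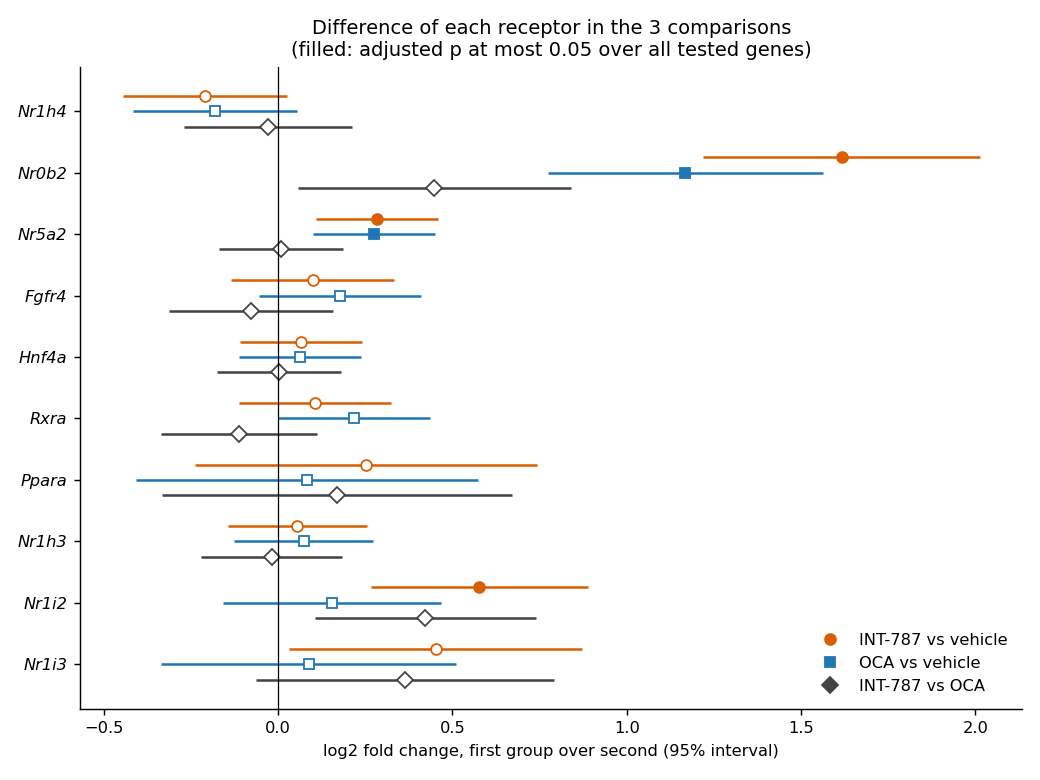
Log2 fold change of each receptor, first group over second, with its 95% interval in the 3 comparisons; filled symbols mark an adjusted p of at most 0.05 over all 12580 tested genes. Nr0b2 stood furthest from 0 with both drugs (1.62 with INT-787 and 1.17 with OCA), and no symbol of the direct comparison is filled.

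Nr0b2, which encodes SHP, was the receptor that moved most. It lies at chr4:133553376-133556536 on the plus strand (GRCm38, GENCODE M21) and has 2 exons. The 250 bases before its start, chr4:133553126-133553375, are shown because this gene carried the largest change; capitals mark CAAGGCCA, TCAAGG at both of its places, and TATAAA, all on the plus strand (RefSeq, GRCm38.p6).
Nr0b2 upstream: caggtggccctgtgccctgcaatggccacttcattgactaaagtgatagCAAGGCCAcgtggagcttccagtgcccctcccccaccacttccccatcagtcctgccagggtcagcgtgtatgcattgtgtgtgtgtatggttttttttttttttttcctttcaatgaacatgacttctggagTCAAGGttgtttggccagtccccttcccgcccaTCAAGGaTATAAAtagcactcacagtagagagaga
CAAGGCCA, an extended motif of the kind that monomeric receptors such as LRH-1 bind, begins 201 bases before the start, and 2.40% of all 32851 RefSeq windows of 300 bases (250 before to 50 after a start) hold it on either strand. TCAAGG, searched after the window had been read, begins 68 and 35 bases before the start and is in 14.4% of all windows. TATAAA, searched for the same reason, begins 28 bases before the start and is in 13.6%. The AGGTCA core motif of nuclear receptors (16.3% of all windows), CAAGGTCA (1.56%), and CAAAGTCCA (0.475%) had no match in this window, nor had the FXR-type inverted repeat IR1 (0.0396%) or the direct repeats DR1 (0.0761%) and DR4 (0.0152%), which says only that these letters are not in this window.

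In vehicle livers Nr0b2 ranged from 8.39 to 34.9 CPM with a median of 19.7 CPM. With OCA it ranged from 32.2 to 62.6 CPM with a median of 52.5 CPM, and 7 of 9 mice stood above the highest vehicle mouse. With INT-787 it ranged from 41.1 to 88.1 CPM with a median of 65.3 CPM, and all 9 mice stood above every vehicle mouse. Mean levels were 21.2 ± 8.59 CPM (SD, n = 10), 47.6 ± 11.4 CPM (n = 9), and 65 ± 14.9 CPM (n = 9). Nr0b2 was 3.07-fold higher with INT-787 than with vehicle (log2 1.62, SE 0.19, adjusted p = 2.03e-07) and 2.25-fold higher with OCA (log2 1.17, SE 0.19, adjusted p = 0.000104). The INT-787 and OCA ranges overlapped, with 5 of 9 INT-787 mice above the highest OCA mouse. The direct difference was 0.45 on the log2 scale for INT-787 over OCA (95% interval 0.06 to 0.84, adjusted p = 0.184), so the larger response to INT-787 did not pass the test over all genes.

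**Figure D3:**
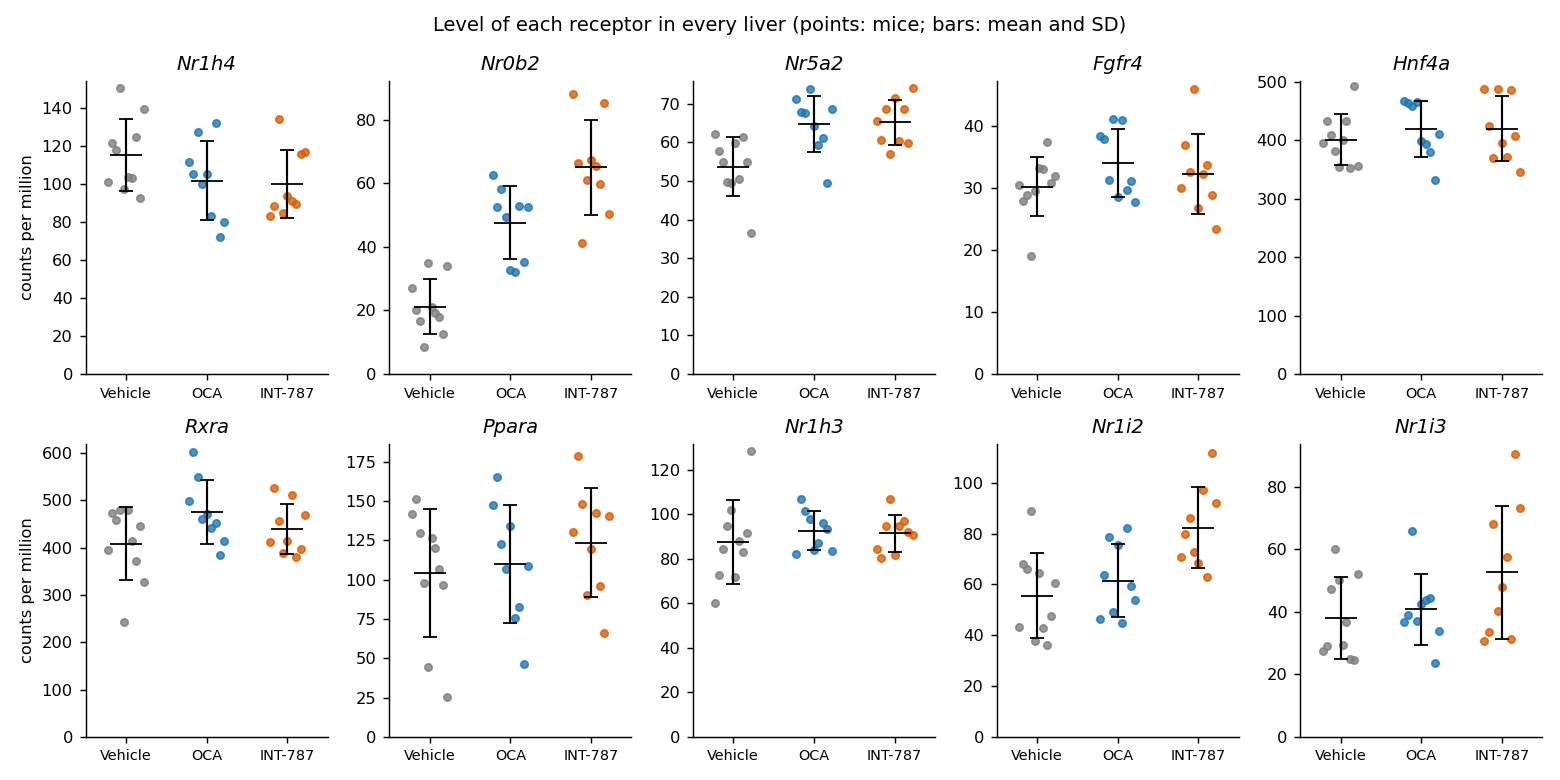
Level of each receptor (CPM) in every liver, with points for mice and bars for the mean and SD, in vehicle (n = 10), OCA (n = 9), and INT-787 (n = 9). For Nr0b2 all 9 INT-787 mice (41.1 to 88.1 CPM) lie above every vehicle mouse (8.39 to 34.9 CPM), whereas Nr1h4, Hnf4a, and Nr1h3 overlap among all groups.

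Nr1h4, which encodes FXR itself (chr10:89454234-89533585, minus strand), did not pass the test in any comparison. It ranged from 92.9 to 150 CPM in vehicle (median 111 CPM), from 72.2 to 132 CPM with OCA (median 105 CPM), and from 83.4 to 134 CPM with INT-787 (median 91.2 CPM). The groups overlapped, although 5 of 9 INT-787 mice and 3 of 9 OCA mice stood below the lowest vehicle mouse. Against vehicle the log2 difference was -0.21 with INT-787 (95% interval -0.45 to 0.03, adjusted p = 0.216) and -0.18 with OCA (-0.42 to 0.06, adjusted p = 0.444). Between the drugs it was -0.03 (-0.27 to 0.21).

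Nr5a2, which encodes LRH-1, a receptor that drives bile acid synthesis genes, lies at chr1:136842571-136960448 on the minus strand. The 250 bases before its distal start, chr1:136960449-136960698 on the minus strand, are given as the upstream sequence of the other receptor called with both drugs; capitals mark AGGTCA on the strand shown, 64 bases before the start, and TTTATA, which is TATAAA on the opposite strand.
Nr5a2 upstream: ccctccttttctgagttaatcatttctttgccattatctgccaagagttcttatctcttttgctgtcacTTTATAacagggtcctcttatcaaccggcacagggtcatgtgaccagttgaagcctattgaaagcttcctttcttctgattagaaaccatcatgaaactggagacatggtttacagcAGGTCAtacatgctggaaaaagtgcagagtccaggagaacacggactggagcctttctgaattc
Nr5a2 ranged from 36.4 to 62.1 CPM in vehicle (median 54.9 CPM), from 49.6 to 73.7 CPM with OCA (median 67.5 CPM), and from 57.0 to 74.0 CPM with INT-787 (median 65.6 CPM). The groups overlapped, and 6 of 9 OCA and 5 of 9 INT-787 mice exceeded the highest vehicle mouse. It was 1.22-fold higher with INT-787 (log2 0.28, SE 0.09, adjusted p = 0.0182) and 1.21-fold higher with OCA (log2 0.28, SE 0.09, adjusted p = 0.0487). The call with INT-787 was lost with upper-quartile scaling (0.22, adjusted p = 0.0543) and held in the other settings and in all 28 runs without 1 mouse. The call with OCA sat at the threshold: it held in 4 of 11 other settings and in 7 of 28 runs that each left out 1 mouse, and the log2 fold change was 0.21 without vehicle replicate 10 (adjusted p = 0.107), the lowest vehicle mouse. The drugs differed by 0.01 (95% interval -0.17 to 0.19), which bounds a difference between them to about 0.19 on the log2 scale.

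Across the members, the AGGTCA motif was found in windows of Nr1h4, Nr5a2, and Rxra, 3 of 10 receptors over 14 windows. Neither IR1, DR1, nor DR4 matched any of the 14 windows. The window of Nr1i2, the other called receptor, held none of the motifs searched.

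Fgfr4 (chr13:55152640-55168759, plus strand), the hepatic receptor for FGF15, did not pass the test. It ranged from 18.99 to 37.4 CPM in vehicle (median 30.6 CPM), from 27.7 to 41.0 CPM with OCA (median 31.3 CPM), and from 23.3 to 45.8 CPM with INT-787 (median 32.2 CPM), with overlap throughout. The log2 difference from vehicle was 0.10 with INT-787 (95% interval -0.13 to 0.33) and 0.18 with OCA (-0.06 to 0.41), and -0.08 between the drugs (-0.31 to 0.16). Its co-receptor Klb rose with INT-787 (24.7 ± 5.56 to 33.7 ± 9.00 CPM, log2 0.43, adjusted p = 0.0419), a call lost in 5 of 11 other settings (adjusted p up to 0.0907), whereas with OCA its log2 difference was 0.27 (adjusted p = 0.353). Between the drugs Klb differed by 0.16 (-0.15 to 0.47). Fgf21, a related hepatic hormone, had log2 differences of 0.57 with INT-787 and 0.39 with OCA (adjusted p = 0.0611 and 0.365), and Dusp6, a phosphatase induced by FGF signals, had log2 differences of -0.08 and -0.02. Fgf15, made in intestine, was below the filter. Of 18 tested genes of FGFR4 signalling, 4 were called higher with INT-787 (22.2%, beside 19.6% of all genes) and 2 with OCA (11.1%, beside 6.60%), none lower, with medians of 0.03 and 0.07. With upper-quartile scaling 3 were called with INT-787 and the median was -0.03. The 2 with OCA, named after their values were seen, were Fgfr2 (0.74 with INT-787 and 0.71 with OCA), another FGF receptor, and Spry4 (1.11 and 1.16), a feedback inhibitor of receptor tyrosine kinases, and both were called with each drug.

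Readouts of FXR and SHP moved with both drugs. Cyp7a1, the enzyme that limits the rate of bile acid production, fell from a median of 57.6 CPM (21.05 to 113 CPM) in vehicle to 9.76 CPM (3.90 to 17.3 CPM) with OCA and 13.7 CPM (3.72 to 22.1 CPM) with INT-787. Its log2 fold change was -2.54 with OCA (adjusted p = 8.54e-07) and -2.28 with INT-787 (adjusted p = 1.57e-06). Between the drugs Cyp7a1 did not pass the test (0.27, 95% interval -0.36 to 0.90). Cyp8b1, the sterol hydroxylase that sets the share of cholic acid, had a median of 131 CPM (49.7 to 175 CPM) in vehicle, 5.81 CPM (1.05 to 29.3 CPM) with OCA, and 1.27 CPM (0.42 to 44.1 CPM) with INT-787. It fell by 4.11 on the log2 scale with OCA and by 4.28 with INT-787, and its difference between the drugs was -0.17 (95% interval -1.52 to 1.18). Both values for INT-787 rested on replicate 4, the mouse at 44.1 CPM. Without it Cyp8b1 fell by 6.22 with INT-787 and was lower with INT-787 than with OCA (-2.11, -3.14 to -1.07, adjusted p = 0.0125). Abcb11, the bile salt export pump, had log2 fold changes of 1.19 (OCA) and 1.70 (INT-787). Among the FXR and SHP targets, it was the export gene called in the direct comparison (0.50, 95% interval 0.21 to 0.79, adjusted p = 0.0307), a call that held in 22 of 28 runs without 1 mouse. Slc51b, a subunit of the basolateral bile acid exporter, rose from 2.23 ± 0.81 CPM in vehicle to 13.7 ± 5.88 CPM with OCA and 21.3 ± 4.55 CPM with INT-787 (log2 2.68 and 3.31), with a direct difference of 0.63 (0.23 to 1.03, adjusted p = 0.0517). Slc51a, the other subunit, was below the filter.

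Of 23 tested FXR and SHP targets, 10 were called higher and 6 lower with INT-787 (69.6% called, beside 19.6% of all genes, median 0.27). With OCA 5 were called higher and 5 lower (43.5%, beside 6.60%, median 0.19). Between the drugs 2 of 23 were higher with INT-787 (8.70%, beside 5.38% of all genes). They were Abcb11 and Cyp27a1, a bile acid synthesis enzyme named after its values were seen (0.42, adjusted p = 0.00322). Cyp27a1 was called lower with OCA than with vehicle (291 ± 23.7 CPM in vehicle and 239 ± 34.5 CPM with OCA, adjusted p = 0.0420) and was not called with INT-787 (321 ± 37.8 CPM). Of 9 tested LRH-1 targets, which share Cyp7a1, Cyp8b1, and Scarb1 with the FXR and SHP list and include Nr0b2, 4 were called higher and 3 lower with each drug. That is 77.8%, beside 19.6% of all genes with INT-787 and 6.60% with OCA. Scarb1, the HDL receptor, rose from 158 ± 15.5 CPM to 336 ± 39.5 CPM with OCA and 374 ± 50.4 CPM with INT-787 (log2 1.09 and 1.25).

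**Figure D4:**
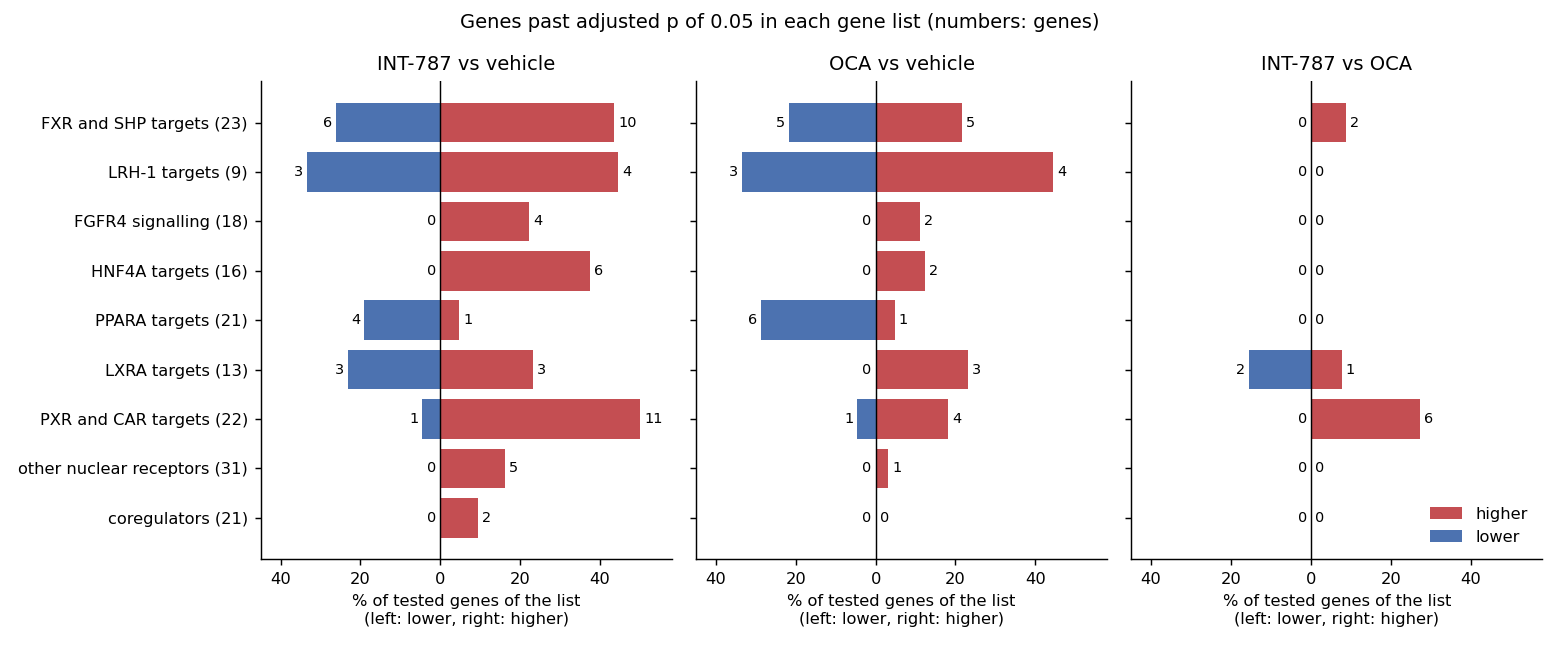
Share of the tested genes of each list called higher (right) or lower (left) at an adjusted p of at most 0.05, with the number of genes beside each bar; list sizes are in parentheses. With INT-787, 7 of 9 LRH-1 targets, 16 of 23 FXR and SHP targets, and 12 of 22 PXR and CAR targets were called, and between the drugs 6 of 22 PXR and CAR targets. Of all tested genes, 19.6% were called with INT-787 and 5.38% between the drugs.

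Hnf4a (chr2:163506808-163572910, plus strand), a receptor that maintains hepatocyte identity, differed little among the groups. It ranged from 353 to 494 CPM in vehicle (median 398 CPM), from 332 to 468 CPM with OCA (median 412 CPM), and from 346 to 489 CPM with INT-787 (median 407 CPM). Set against vehicle, its log2 difference was 0.07 with INT-787 (95% interval -0.11 to 0.24) and 0.06 with OCA (-0.11 to 0.24), and between the drugs it was 0.002 (-0.18 to 0.18). Its targets Apoa1, Apob, and Ttr, which encode secreted proteins, did not pass the test in any comparison (log2 -0.33 to 0.26 against vehicle). Of 16 HNF4A targets, 6 were called higher with INT-787 (37.5%, beside 19.6% of all genes) and 2 with OCA (12.5%, beside 6.60%), none lower (medians 0.24 and 0.13). The counts were 3 and 2 with upper-quartile scaling, 9 and 4 with the length score as a covariate, and 6 and 1 without vehicle replicates 5 and 6. The 2 with OCA, named after their values were seen, were Otc, a urea cycle enzyme (0.82 with INT-787 and 0.56 with OCA), and Tat, a tyrosine-degrading enzyme (0.75 and 0.61).

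Rxra (chr2:27676440-27762957, plus strand), the shared dimer partner, did not pass the test. It ranged from 242 to 479 CPM in vehicle (median 430 CPM), from 384 to 602 CPM with OCA (median 461 CPM), and from 381 to 526.2 CPM with INT-787 (median 413 CPM), and the groups overlapped. The log2 difference from vehicle was 0.22 with OCA (95% interval -0.0004 to 0.44, unadjusted p = 0.0504, adjusted p = 0.271) and 0.11 with INT-787 (-0.11 to 0.32). The direct difference was -0.11 (-0.34 to 0.11). Rxrb, its paralog, differed from vehicle by 0.10 with OCA and 0.12 with INT-787 and was not called.

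Ppara (chr15:85734983-85802819, plus strand), the fatty acid sensor that drives beta-oxidation, was among the most variable receptors from mouse to mouse, with a coefficient of variation of 39.1% among vehicle mice, 34% among OCA mice, and 27.9% among INT-787 mice. Its level ranged from 25.4 to 152 CPM in vehicle (median 113 CPM), from 46.3 to 166 CPM with OCA (median 109 CPM), and from 66.3 to 179 CPM with INT-787 (median 131 CPM). Vehicle replicates 10 and 5, the lowest livers, also had the lowest length scores. Relative to vehicle the log2 difference was 0.25 with INT-787 (95% interval -0.24 to 0.74) and 0.08 with OCA (-0.41 to 0.57), and 0.17 between the drugs (-0.33 to 0.67), so the intervals were wide.

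More PPARA targets were called lower than higher with OCA. Of 21 tested, 6 were called lower and 1 higher with OCA (33.3% called, beside 6.60% of all genes, median -0.45). With INT-787 4 were called lower and 1 higher (23.8%, beside 19.6% of all genes, median -0.16), while none was called between the drugs (median 0.20). Without vehicle replicates 5 and 6 the split with INT-787 was 3 lower and 2 higher. Pdk4, which spares glucose by inhibiting pyruvate dehydrogenase, fell by 0.96 with OCA (adjusted p = 0.00267) and had a log2 difference of -0.36 with INT-787 (adjusted p = 0.219). Cyp4a14, a fatty acid hydroxylase, had -1.32 with OCA and -0.32 with INT-787 (adjusted p = 0.0552 and 0.646), and Cpt1a, the gate of mitochondrial fatty acid entry, -0.02 with OCA and 0.07 with INT-787. In the direct comparison Pdk4 and Cyp4a14 had 0.59 and 1.00 (adjusted p = 0.0944 and 0.183), and Cyp4a14 had 0.36 without INT-787 replicate 4. The gene called higher with each drug, named after its values were seen, was Creb3l3, a hepatic transcription factor (0.33 with OCA and 0.51 with INT-787).

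Nr1h3 (chr2:91184061-91202834, minus strand), the oxysterol sensor LXR alpha, did not pass the test. It ranged from 60.03 to 128 CPM in vehicle (median 86.1 CPM), from 82.3 to 107 CPM with OCA (median 93.5 CPM), and from 80.4 to 107 CPM with INT-787 (median 92 CPM), and both drug groups lay inside the vehicle range. The log2 difference from vehicle was 0.06 with INT-787 (95% interval -0.14 to 0.25) and 0.07 with OCA (-0.13 to 0.27), and -0.02 between the drugs (-0.22 to 0.18). Of 13 LXRA targets, a list that holds Nr1h3 itself, 3 were called higher and 3 lower with INT-787 (46.2%, beside 19.6% of all genes) and 3 higher with OCA (23.1%, beside 6.60%), with medians of -0.01 and -0.004. That list shares Abcg5 and Abcg8, called with each drug, with the LRH-1 targets, and Pltp, called with INT-787, with the FXR and SHP targets. Abcg5, a sterol exporter of the canalicular membrane, rose by 0.82 with INT-787 and 0.74 with OCA. Srebf1, the regulator of fatty acid synthesis, rose by 0.43 with OCA (adjusted p = 0.0171) and had 0.29 with INT-787 (adjusted p = 0.0773). Abca1, which loads cholesterol onto HDL, had -0.27 with INT-787 and 0.05 with OCA. Between the drugs, and named after their values were seen, Fasn, fatty acid synthase, was higher (0.72) and Abcg1 (-0.47) and Lpl, lipoprotein lipase (-0.68), were lower with INT-787, of which Lpl sat at the threshold (adjusted p = 0.0499) and was lost in 5 of 11 other settings and 20 of 28 runs without 1 mouse. Nr1h2, the LXR beta gene, had -0.04 with INT-787 and -0.09 with OCA against vehicle and was not called.

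Nr1i2 (chr16:38248323-38294824, minus strand), which encodes PXR, the sensor of drugs and toxic bile acids, was called with INT-787 alone, and the difference between the drugs did not pass the test. It ranged from 36.3 to 89.1 CPM in vehicle (median 54.0 CPM), from 44.6 to 82.3 CPM with OCA (median 59.5 CPM), and from 62.8 to 112 CPM with INT-787 (median 79.7 CPM). The groups overlapped, yet all 9 INT-787 mice stood above the median of the vehicle mice and above that of the OCA mice. Mean levels were 55.6 ± 16.9, 61.5 ± 14.4, and 82.4 ± 15.8 CPM. Nr1i2 was 1.49-fold higher with INT-787 than with vehicle (log2 0.58, SE 0.15, adjusted p = 0.00711), and this call held in all 11 other settings and all 28 runs without 1 mouse. With OCA the log2 difference was 0.15 (95% interval -0.16 to 0.47, adjusted p = 0.669). INT-787 exceeded OCA by 0.42 (95% interval 0.11 to 0.74, adjusted p = 0.111), and this difference was called in 1 of 11 other settings, with sets of neighboring sample numbers as a block (adjusted p = 0.0230). OCA replicate 9, alone in its set, did not add to the difference in that block model.

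Nr1i3 (chr1:171213970-171220701, plus strand), the gene for CAR, did not pass the test. It ranged from 24.7 to 60.2 CPM in vehicle (median 33.1 CPM), from 23.7 to 65.9 CPM with OCA (median 39.1 CPM), and from 30.8 to 90.5 CPM with INT-787 (median 48.1 CPM), with wide overlap. Against vehicle the log2 difference was 0.45 with INT-787 (95% interval 0.03 to 0.87, unadjusted p = 0.0360, adjusted p = 0.123) and 0.09 with OCA (-0.33 to 0.51), and 0.36 between the drugs (-0.06 to 0.79, adjusted p = 0.363). Of its 4414 bp of exon, 3304 bp overlap exons of Tomm40l on the opposite strand, and the use of strand in counting is not given in the sources used here, so its counts may hold Tomm40l reads and its level per kilobase is uncertain. Over the 28 runs that each left out 1 mouse, the difference with INT-787 ran from 0.32 to 0.55 (adjusted p from 0.0602 to 0.293). It was called with the length score as a covariate (0.50, adjusted p = 0.0443), a setting added after seeing the data. The other 9 receptors had no exon overlap of this kind.

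Among PXR and CAR targets, those called with INT-787 were higher with 1 exception. Of 22 tested, 11 were called higher and 1 lower with INT-787 (54.5% called, beside 19.6% of all genes, median 0.42). With OCA 4 were called higher and 1 lower (22.7%, beside 6.60%, median 0.13). Between the drugs 6 were higher with INT-787 and none lower (27.3%, beside 5.38% of all genes, median 0.32), and the same counts of 6 and 0 were found with both other scalings. Upper-quartile scaling gave 9 higher with INT-787, and both other scalings gave 2 lower with OCA. Cyp3a11, the main drug-metabolizing target of PXR, rose by 0.44 with INT-787 (adjusted p = 0.0353) and had 0.08 with OCA, with a direct difference of 0.36 (95% interval 0.04 to 0.67, adjusted p = 0.185). Cyp2b10, the usual CAR readout, was at 0.70 ± 0.49 CPM in vehicle, 0.72 ± 0.52 CPM with OCA, and 0.72 ± 0.46 CPM with INT-787. Abcc3, a basolateral exporter, had -0.41 with OCA (adjusted p = 0.0580) and -0.09 with INT-787. The 6 called between the drugs, named after their values were seen, were Gsta2 (1.12) and Gstm1 (0.63), glutathione transferases, the transporters Slco1a4 (0.87) and Abcb1a (0.71), the esterase Ces2a (0.56), and Cyp3a25 (0.47). Gsta2 ranged from 16.7 to 37.0 CPM in vehicle, from 30.1 to 90.9 CPM with OCA, and from 79.4 to 173 CPM with INT-787, so INT-787 and vehicle livers did not overlap.

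Of 31 tested nuclear receptors outside the 10, 5 were called higher with INT-787 and 1 with OCA (16.1% and 3.23%, beside 19.6% and 6.60% of all genes), none lower and none between the drugs. With upper-quartile scaling 1 was higher and 1 lower with INT-787. Those that rose with INT-787 included the retinoic acid receptor Rara (log2 0.35), the mineralocorticoid receptor Nr3c2 (0.44), and the estrogen receptor Esr1 (0.39). Nr2f2 (COUP-TFII) rose with OCA (0.48, adjusted p = 0.00697) and had 0.14 with INT-787, with a direct difference of -0.35 (adjusted p = 0.0772). Of 21 coregulators, 2 were called higher with INT-787 (9.52%, beside 19.6% of all genes) and none with OCA or between the drugs. Ppargc1a, the coactivator PGC-1 alpha, rose from 8.76 ± 3.16 to 13.4 ± 2.43 CPM with INT-787 (log2 0.58, adjusted p = 0.00906) and had 0.42 with OCA (adjusted p = 0.128). The other, named after its values were seen, was Nrip1, a corepressor (0.41). Ncor1 and Ncoa1 had log2 differences between -0.09 and 0.03 against vehicle.

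Whether the receptors varied together from mouse to mouse was examined with log2(CPM + 0.5) after the group means were removed, over 28 mice, in 45 pairs of receptors and 5 pairs with a readout. By a permutation test with 100000 resamples and Benjamini-Hochberg adjustment over the 50 pairs, 9 pairs passed 0.05 for Pearson's r (6 positive), and 6 of them also for Spearman's rho (adjusted p for rho from 0.0005 to 0.0398 in these 6 and from 0.0594 to 0.0940 in the other 3). The 3 that did not pass for rho were Ppara and Nr1h3, Nr5a2 and Nr1h3, and Nr1i2 and Nr1i3. The sign of r was the same within all 3 groups for 7 of the 9. Rxra and Ppara had r = 0.77 (rho = 0.79, p = 8e-05, adjusted p = 0.00225), with 0.74, 0.80, and 0.81 within vehicle, OCA, and INT-787 and 0.74 without the 2 mice farthest from the Rxra median. Nr1h4 rose and fell with Nr1i3 (r = 0.68, rho = 0.64, adjusted p = 0.00225, 0.62 without 2 mice) and with Nr1i2 (r = 0.58, rho = 0.54, adjusted p = 0.0151, 0.53 without 2 mice), and both signs held in each group. Nr1i2 and Nr1i3 had r = 0.54 (rho = 0.49, adjusted p = 0.0208, 0.43 without 2 mice). The pairs of Nr1i3 carry the limit given above, that its counts may hold Tomm40l reads. Nr1i2 and Fgfr4 went in opposite directions (r = -0.57, rho = -0.55, adjusted p = 0.0151, -0.40 without 2 mice), and Fgfr4 rose with Klb (r = 0.56, rho = 0.60, adjusted p = 0.0177, 0.46 without 2 mice). Nr0b2 had r = -0.44 with Cyp7a1 (rho = -0.43, adjusted p = 0.125, -0.47 without 2 mice), which did not pass.

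The 3 pairs not yet described, among those that passed for Pearson's r, were formed by Ppara, Nr5a2, and Nr1h3. These were the receptors most strongly correlated with the length score of the libraries. Nr5a2 and Ppara also passed for rho (adjusted p = 0.0398), and the pairs with Nr1h3 did not. Nr5a2 and Ppara had r = 0.77 (rho = 0.54, adjusted p = 0.00250, 0.49 without 2 mice), Ppara and Nr1h3 r = -0.63 (rho = -0.51, adjusted p = 0.0151, -0.48 without 2 mice), and Nr5a2 and Nr1h3 r = -0.62 (rho = -0.47, adjusted p = 0.0177, -0.47 without 2 mice). The length score itself correlated with Ppara (r = 0.84, rho = 0.79), Nr1h3 (r = -0.77, rho = -0.60), and Nr5a2 (r = 0.71, rho = 0.60), given as a description, and less strongly with Klb (r = 0.53), Nr1i3 (r = -0.50), Rxra (r = 0.49), and Hnf4a (r = 0.42). After the score was removed by linear regression, a step chosen after seeing the data, these pairs had r = 0.45, 0.03, and -0.16, whereas Rxra and Ppara had 0.76, Nr1h4 and Nr1i3 0.68, Nr1h4 and Nr1i2 0.56, Nr1i2 and Nr1i3 0.48, Nr1i2 and Fgfr4 -0.55, and Fgfr4 and Klb 0.56. The same step raised r for pairs that had not passed, among them Rxra and Nr1i2 (0.49 to 0.74), Ppara and Nr1i2 (0.06 to 0.57), and Nr1h4 and Ppara (0.09 to 0.49). Sets of neighboring sample numbers, removed beside the group means in another step chosen after seeing the data, changed other pairs. In this step vehicle replicate 4 and OCA replicate 9, each alone in a set, were fitted exactly and did not add to r. Rxra and Ppara then had 0.76, Nr1h4 and Nr1i3 0.60, Nr5a2 and Ppara 0.88, Ppara and Nr1h3 -0.53, and Nr5a2 and Nr1h3 -0.47, but Nr1h4 and Nr1i2 had 0.35, Nr1i2 and Nr1i3 0.26, Nr1i2 and Fgfr4 -0.15, and Fgfr4 and Klb 0.11. Some pairs of Nr0b2 that had not passed moved away from 0 in this step, among them Nr0b2 and Ppara (-0.25 to -0.60), Nr0b2 and Nr1i3 (-0.005 to 0.58), Nr0b2 and Nr1h3 (0.06 to 0.54), and Nr0b2 and Nr1h4 (-0.08 to 0.42). Others moved toward 0, among them Nr0b2 and Cyp7a1 (-0.44 to -0.29) and Nr0b2 and Abcb11 (0.40 to 0.30). Among vehicle livers, replicate 4, fitted exactly here, had the highest Nr1h4 (150 CPM), Nr1i2 (89.1 CPM), and Nr1i3 (60.2 CPM). It also had the lowest Nr0b2 (8.39 CPM) and Fgfr4 (18.99 CPM). The share of that mouse in these changes of r was not tested. With the score as a covariate in the edgeR model, Nr0b2 (1.64 with INT-787 and 1.19 with OCA), Nr5a2 (0.27 and 0.27), and Nr1i2 (0.59 with INT-787) were called, and Nr1i3 was called with INT-787 (0.50, adjusted p = 0.0443).

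**Figure D5:**
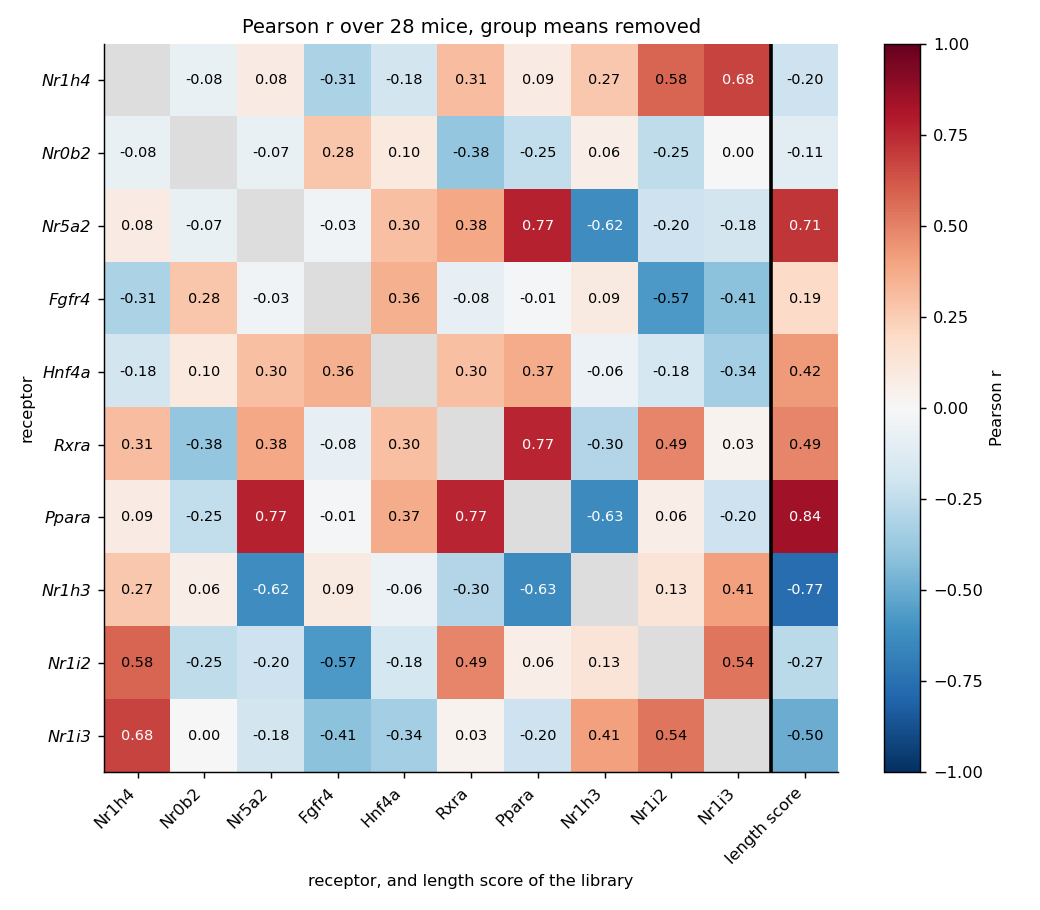
Pearson r between the receptors over 28 mice, on log2(CPM + 0.5) with the group means removed; the column right of the line gives r with the length score of the library. Ppara and Nr5a2 had positive r (0.84 and 0.71) and Nr1h3 negative r (-0.77) with the length score, while Nr0b2 had -0.11.

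Among 9353 genes with a mean of at least 5 CPM, those most like each receptor from mouse to mouse, by Pearson r over 28 mice with group means removed, are given as a description. For Nr1h4 they were Chn2 (0.78) and Coq10a (0.77), for Nr0b2 Cyp2u1 (0.68) and Pdia4 (0.66), and for Nr5a2 Fam91a1 (0.87) and Zfp318 (0.86). For Hnf4a they were Hdlbp (0.72) and Rnf10 (0.71), for Rxra Ctif (0.87), and for Ppara Garem1 (0.96) and Vps13b (0.93). Nr1h3 was most like Ndufb7 (0.88) and Cyp2d10 (0.87), Nr1i2 most like Aifm2 (0.91) and Tedc2 (0.90), Nr1i3 most like Creg1 (0.86) and Cyp2e1 (0.85), and Fgfr4 most like Sec61a1 and Actg1 (both 0.81). Nr0b2 had the lowest best value of the 10, and Ppara the highest.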

How the data were processed

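Counts of reads per Ensembl gene were deposited by the authors as whole numbers without normalization, 1 column per mouse; stranded libraries were aligned to GRCm38 with STAR 2.5.2a and Ensembl release 89, per the labels and the study's methods, and the counting program and its use of strand are not given in the sources used here. No columns belonged to samples outside the series. The function filterByExpr, given the 3 groups, left 12580 of 21935 genes, which were scaled by TMM, and tested with edgeR 4.0.16 (glmQLFit, glmQLFTest; R 4.3.3) in 1 model of the 3 groups without covariates. The study used DESeq2, run here as an alternative (version 1.42.0), beside limma 3.58.1, other scalings and filters, blocks, and runs without single mice. Correlations used Python 3.11.15 and scipy 1.17.1. The edgeR steps were tested on simulated counts. Exon lengths were merged exons of GENCODE M21. Symbols were matched for 21858 genes, and 1 of 230 listed genes, Tf, was not matched.

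The members, lists, and tests were chosen with earlier results of these data known. The genes named were the 10 receptors, fixed readouts of each, up to 4 other nuclear receptors called in a comparison by lowest p, and the 2 genes most like each receptor; further names are marked in the text. A few genes that this rule takes in are not reported here. Replicates were separate mice. Depth limits low genes in vehicle replicate 6, where 1 count is about 1 CPM. Intervals are at the 95% level.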

Additional observations from a re-analysis of the deposited data

Results flagged for a closer look

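Each of 30 sets of values (10 receptors in 3 groups) was examined for a mouse far from the rest of its group by Dixon's test, in which chance marks about 1 in 20 sets, and 3 were marked. Nr5a2 was 36.4 CPM in vehicle replicate 10, next to 49.5 CPM, and that liver also had the lowest length score (-0.82). Nr1i3 was 65.9 CPM in OCA replicate 3, next to 44.5 CPM. Fgfr4 was 18.99 CPM in vehicle replicate 4, next to 27.9 CPM.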

How the results depend on the processing

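The calls of Nr0b2 with both drugs and of Nr1i2 with INT-787 held in all 11 other settings and all 28 runs without 1 mouse, and that of Nr5a2 with INT-787 in 10 of 11 and 28 of 28 (0.22, adjusted p = 0.0543, with upper-quartile scaling). Called receptors with OCA numbered 1 at an adjusted p of at most 0.01, with DESeq2 size factors, upper-quartile scaling, no filter, only the 2 groups compared, the replicate block, the sample number sets, and without vehicle replicates 5 and 6, and 1 to 2 without single mice, the receptor lost being Nr5a2; between the drugs 1 was called with the sample number sets. At an adjusted p of at most 0.01, 1334, 435, and 247 genes were called (INT-787, then OCA, each against vehicle, and last between the drugs), and between the drugs 443 to 888 genes without single mice, 443 being without OCA replicate 8. Upper-quartile scaling moved the median of all genes to -0.06 for INT-787 and made 960 of 2557 calls higher, against 1277 of 2469; for OCA 408 of 780 were higher, against 522 of 830.

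Values near 0 changed sign: Nr1h3 with INT-787 (-0.0072, upper-quartile), Nr5a2 between the drugs (-0.0195, upper-quartile, and -0.013, at least 10 counts in every mouse), and Hnf4a between the drugs (-0.0248 and -0.0188 for the same settings, -0.0013 with limma-voom, and -0.001 with the length score). Without single mice, Ppara with OCA ran from -0.0489 to 0.1838 and Nr1i3 with OCA from -0.0276 to 0.1826, and between the drugs Nr1h4 from -0.091 to 0.0261, Nr5a2 from -0.033 to 0.0341, Hnf4a from -0.0344 to 0.0514, and Nr1h3 from -0.0481 to 0.0113. Within OCA, r was 0.0176 for Nr5a2 and Nr1h3 and 0.0541 for Ppara and Nr1h3, which had 0.0338 with the length score removed. Of the other named genes called with INT-787 against vehicle, Cyp3a11, Esr1, and Nr3c2 were each called in 18 of 28 runs without 1 mouse, Klb in 17, and Pecam1 in 11, and the call of Cyp27a1 with OCA held in 17. The cause was not tested.

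Replicate numbers were not taken to pair the mice, since r of same-numbered deviations ran from -0.29 to 0.59, although between INT-787 and OCA its median was 0.23 and the best match had the same number in 6 of 9 cases, against 1 of 9 for each drug with vehicle. After replicate 3 the replicate numbers fall out of step with the sample numbers, so mice of the same set of neighboring sample numbers were compared as well, in a check added after seeing the data: r ran from -0.20 to 0.59, with medians of 0.16 (INT-787 and vehicle), 0.12 (OCA and vehicle), and 0.30 (INT-787 and OCA), and the best match was from the same set in 2 of 9, 1 of 8, and 5 of 8 cases. The sets removed 67.1% of the variance of the length score within groups, with 10 of 25 degrees of freedom. With the sets as a block 2710, 807, and 654 genes and 3, 1, and 1 receptors were called, while the permutation p values of the correlations did not take the sets into account. Vehicle replicate 4 and OCA replicate 9, each alone in a set, were fitted exactly in this block model and did not add to its group differences. With the replicate block 2417, 868, and 677 genes and 3, 1, and 0 receptors were called, and Ppara with OCA was -0.08.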
